A study of Homo sapiens with 12 samples.

Results

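Expression of 7 genes that build or border the tight junction was followed in the ovarian cancer cell line SK-OV-3, of human origin: the claudins CLDN1, CLDN3, CLDN4 and CLDN7, occludin (OCLN), the scaffold protein ZO-1 (TJP1) and the adhesion protein EPCAM. All probes that carry 1 of these symbols in the platform annotation were taken, which gave 11 of the 47313 probes and 7 of the 20043 gene symbols on the array. The rule itself reads no measured value, but the genes were proposed with earlier results of these data known. EPCAM had 3 probes, OCLN and TJP1 had 2 each and every claudin had 1. Probes of a gene are numbered by their mean level, with probe 1 the brightest.

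The cells carried an shRNA against IRF-1 (shIRF1) or a scrambled shRNA (shCTRL), and received CDDP for 24 hours or none; CDDP is cisplatin, which crosslinks DNA. The 4 groups were shIRF1 with CDDP, shCTRL with CDDP, shIRF1 without CDDP and shCTRL without CDDP, with 3 Illumina bead arrays each and 1 RNA sample per array. All 12 samples come from this 1 line transfected with an shRNA. The sources used here give neither the dose of CDDP, nor the number of shRNA clones, nor whether a group holds separate cultures. The p-values therefore cover the spread seen among these samples only, and part of it may be technical.

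Tight junctions seal the space between neighbouring epithelial cells. Claudins are membrane proteins whose strands form the seal and set which ions pass, occludin joins those strands, and ZO-1 ties them to the actin skeleton from inside the cell. EPCAM is an epithelial adhesion protein that binds claudin-7 and protects claudins from degradation, and CLDN3, CLDN4 and EPCAM are known as genes with high expression in ovarian carcinomas.

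CLDN3 and CLDN4 are direct neighbours on chromosome 7, with 0 annotated genes between them, and the CLDN3 probe passed the test in 3 of the 5 comparisons below, that of CLDN4 in 0 and that of CLDN7 in 1. Their start regions are shown for that reason. The sequences are from RefSeq on GRCh38.p14, in the direction of transcription, with 250 bases before and 50 bases from the annotated start. They lie at chr7:73770221-73770520 on the minus strand for CLDN3, at chr7:73830746-73831045 on the plus strand for CLDN4 and at chr17:7262429-7262728 on the minus strand for 1 of the CLDN7 starts. Capitals mark CAGGTG, or CACCTG as the same motif on the other strand, an E-box to which repressors such as SNAI2 are known to bind.
CLDN3: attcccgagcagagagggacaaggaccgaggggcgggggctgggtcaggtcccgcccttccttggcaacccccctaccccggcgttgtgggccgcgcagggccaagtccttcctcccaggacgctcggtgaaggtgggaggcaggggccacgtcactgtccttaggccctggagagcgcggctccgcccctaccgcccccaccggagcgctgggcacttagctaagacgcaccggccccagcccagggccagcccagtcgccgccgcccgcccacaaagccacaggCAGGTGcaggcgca
CLDN4: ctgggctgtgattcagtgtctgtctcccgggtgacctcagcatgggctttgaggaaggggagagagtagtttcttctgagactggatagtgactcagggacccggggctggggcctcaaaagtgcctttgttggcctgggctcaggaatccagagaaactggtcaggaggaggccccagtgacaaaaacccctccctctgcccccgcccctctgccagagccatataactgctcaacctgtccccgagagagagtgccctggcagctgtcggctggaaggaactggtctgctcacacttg
CLDN7: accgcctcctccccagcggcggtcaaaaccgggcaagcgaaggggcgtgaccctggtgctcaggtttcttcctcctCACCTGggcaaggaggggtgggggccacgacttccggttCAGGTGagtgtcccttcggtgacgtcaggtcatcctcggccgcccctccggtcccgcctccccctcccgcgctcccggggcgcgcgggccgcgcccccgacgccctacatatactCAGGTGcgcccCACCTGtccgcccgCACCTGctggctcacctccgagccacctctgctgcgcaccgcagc
The CLDN3 window held 1 such E-box, at base 37 after the start, the CLDN4 window held 0, and this CLDN7 window held 5, at -174, -135, -20, -9 and 6 counted from the start as base 1. The window of the second CLDN7 start, at chr17:7263164-7263463, held 0. Windows were found for 6 of the 7 genes, 11 windows in all, of which 5 held the E-box. Beside those of CLDN3 and CLDN7, they were the OCLN windows and 1 window of TJP1. The E-box was present in 20.6% of 35116 RefSeq windows of the same length. The interferon-stimulated response element, searched on both strands as GAAA, any 2 bases and GAAA, was in 1 of the 11 windows, that of the second CLDN7 start, and in 3.57% of all windows. The Grainyhead-like site AACCGGTT was in 0 of the 11 and in 0.134% of all. None of the marked E-boxes overlapped a match of the other motifs. EPCAM is named only.

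Between 18075 and 21126 probes were detected per array (38.2% to 44.7%), where detected means a deposited detection p-value under 0.05, and the mean signal was 259 to 388. Arrays of a group correlated at r = 0.977 to 0.989 over 12 pairs and arrays of different groups at 0.947 to 0.984 over 54 pairs. Of 10 markers of carcinoma epithelium, 6 were detected on all 12 arrays and 0 on none, while 3 of 4 endothelial markers, 1 of 6 fibroblast markers and 1 of 5 leukocyte markers were detected on 0 arrays. In these other lists 0 endothelial markers, 1 fibroblast marker (COL1A1) and 1 leukocyte marker (CD68) were detected on all 12 arrays. IRF1, the gene the shRNA names, had log2 levels of 8.59, 8.14 and 8.20 on arrays labelled shIRF1, against 8.30, 8.51 and 7.84 on shCTRL arrays, a difference of 0.10 (SE 0.25, limma adjusted p = 0.909). With CDDP it had 8.94, 9.08 and 9.26 on arrays labelled shIRF1, against 9.97, 10.38 and 9.38 under shCTRL (-0.82, SE 0.25, adjusted p = 0.0868). IRF1 was therefore not shown to be lower either without CDDP or with it, and the name "arrays labelled shIRF1" is kept for those samples below.

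Detection set what could be read for each gene. CLDN1, CLDN3, both TJP1 probes and all 3 EPCAM probes were detected on all 12 arrays. CLDN7 was detected on 8 arrays: 3 labelled shIRF1 with CDDP, 0 of shCTRL with CDDP, 3 labelled shIRF1 and 2 of shCTRL. CLDN4 was detected on 7, which were 2, 2, 2 and 1 arrays of those groups in the same order. The OCLN probes were detected on 0 of 12 arrays. Of the 11 probes, 9 probes of 6 genes passed the filter of detection on at least 3 arrays and were tested together with 22260 probes in all, and both OCLN probes were left out by it.

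**Figure D1:**
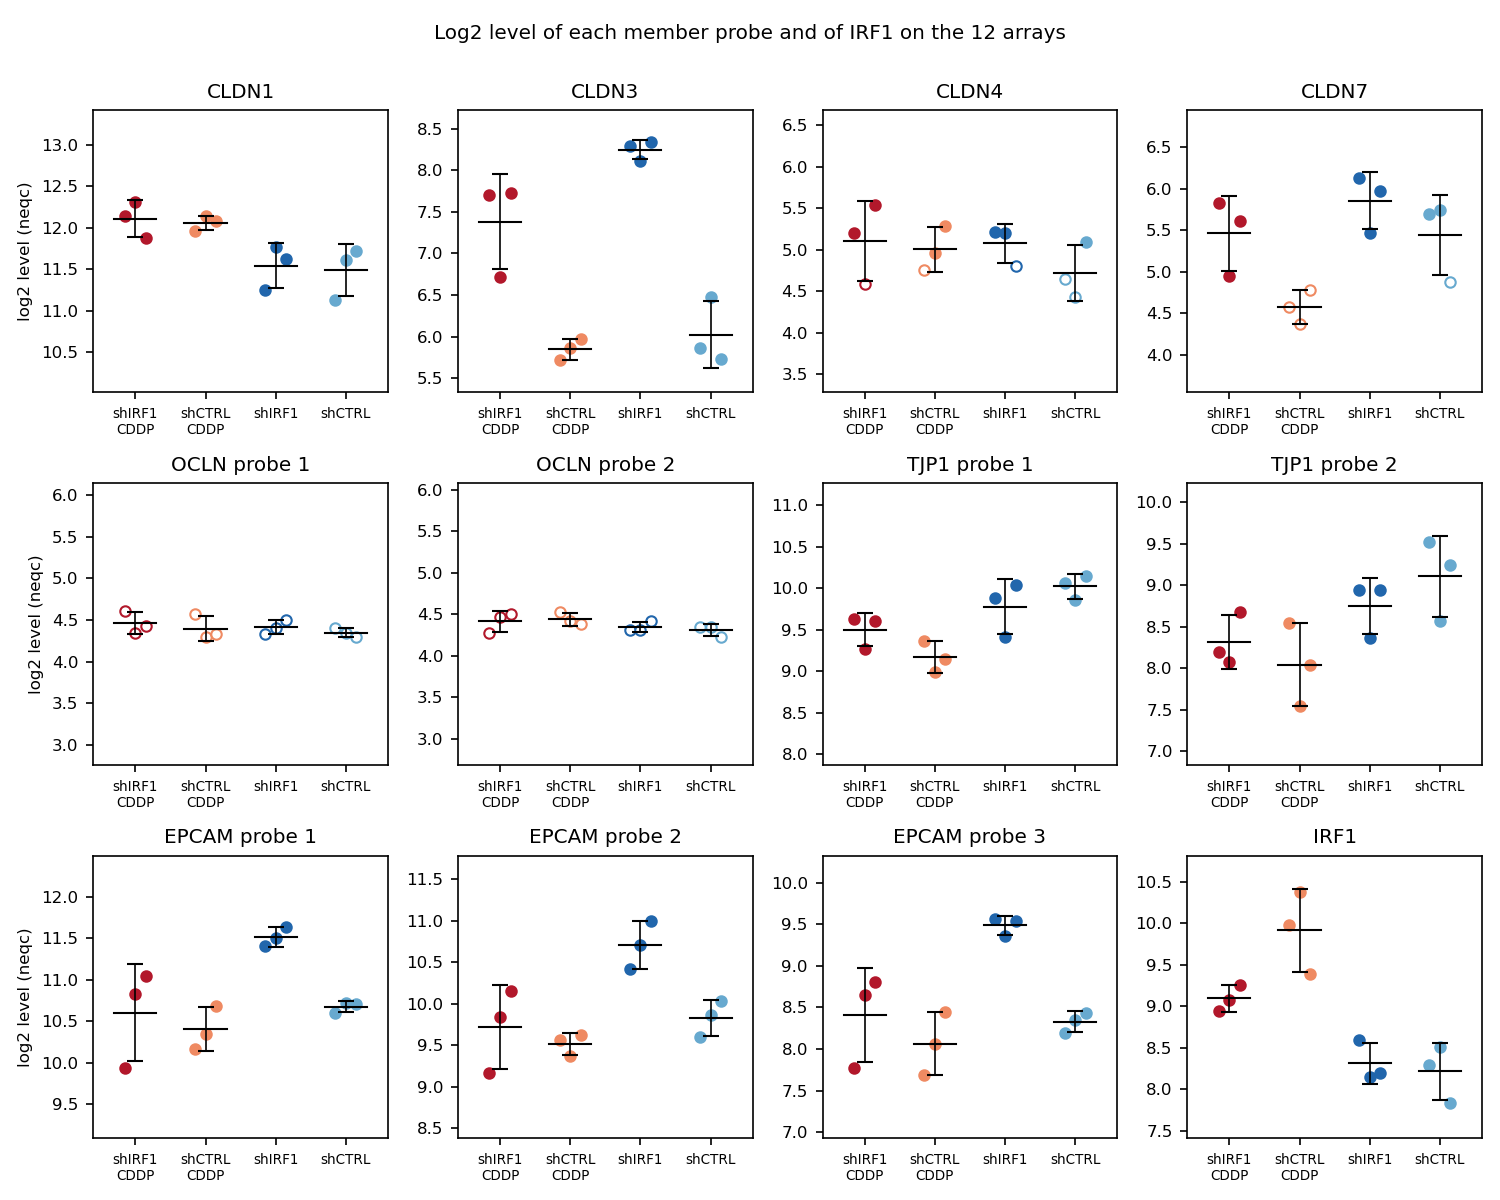
Each panel plots the log2 level (normalized signal) of 1 probe on the 12 arrays, with IRF1 as the last panel; filled points were detected (p-value under 0.05), open points were not, and lines show the mean and SD of 3 arrays. CLDN3 and EPCAM were high on the arrays labelled shIRF1 without CDDP, CLDN1 was high in both CDDP groups, and every OCLN point is open. The vertical axes span equal ranges of log2 units around different levels.

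CLDN3, a claudin that tightens the seal, differed most between the shRNA labels. Its log2 level was 8.29, 8.12 and 8.34 on arrays labelled shIRF1, against 5.86, 6.48 and 5.73 on shCTRL arrays. The 2 groups did not overlap, and the lowest array labelled shIRF1 stood well above the highest shCTRL array. Overlap of groups is given here and below as a description of the arrays and not as a test. The share of all probes whose groups do not overlap is not given. The means were 8.25 ± 0.12 on arrays labelled shIRF1 and 6.02 ± 0.40 on shCTRL arrays (SD, n = 3 each), so that CLDN3 was 4.68-fold higher (log2 2.23, SE 0.26, 95% confidence interval 1.67 to 2.78, limma adjusted p = 9.42e-05). In the deposited signal, before any correction, CLDN3 read 317, 350 and 455 on arrays labelled shIRF1, against 120, 153 and 140 on shCTRL arrays, where it lay close to the background of the array. RNA from whole cultures cannot tell a change in the number of cells that express a gene from a change in RNA per cell, here or for any gene below.

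With CDDP the gap in CLDN3 remained. The levels were 7.70, 6.72 and 7.73 on arrays labelled shIRF1 with CDDP, against 5.71, 5.86 and 5.97 under shCTRL with CDDP. The groups again did not overlap. The difference was 2.90-fold (log2 1.54, SE 0.26, interval 0.98 to 2.09; adjusted p = 0.00296 by limma). Both CLDN3 differences passed in all 21 alternative analyses, at log2 1.45 to 2.46 without CDDP and 0.90 to 1.86 with it, where the lowest values are those without background correction.

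CDDP lowered CLDN3 on the arrays labelled shIRF1, by 1.82-fold (log2 -0.87, SE 0.26, interval -1.42 to -0.31, limma adjusted p = 0.0258), with no overlap between the 3 arrays with CDDP and the 3 without. Under shCTRL the arrays with and without CDDP overlapped, and the change of -0.18 (SE 0.26, interval -0.73 to 0.38, adjusted p = 0.673) did not pass. The test of the difference between these responses gave -0.69 (SE 0.37, interval -1.47 to 0.09, limma adjusted p = 0.683), so the responses were not shown to differ. The fall rested partly on CDDP array 2 of the shIRF1 label, the lowest of its group for CLDN3 and the array with the most detected probes (21126): without it the change was -0.53 (adjusted p = 0.133). The fall also failed to pass without shIRF1 array 1 (adjusted p = 0.0739), without shIRF1 array 3 (0.0711) and with no detection filter (0.0625). From high to low the CLDN3 group means ran shIRF1, shIRF1 with CDDP, shCTRL and shCTRL with CDDP. The last pair of neighbours was not shown to differ, and the middle pair was not compared.

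CLDN4, the neighbour of CLDN3 on the chromosome and like it a receptor of a Clostridium enterotoxin, stayed near the detection limit. Its log2 levels were 5.19, 4.59 and 5.54 on arrays labelled shIRF1 with CDDP, and 4.76, 4.96 and 5.29 under shCTRL with CDDP. Without CDDP they were 5.21, 5.20 and 4.81 on arrays labelled shIRF1, against 4.64, 4.43 and 5.09 on shCTRL arrays. The 4 groups overlapped throughout. The label difference was 0.36 without CDDP (SE 0.25, interval -0.18 to 0.89, limma adjusted p = 0.546) and 0.10 with it (adjusted p = 0.873). The CDDP change was 0.28 under shCTRL (adjusted p = 0.456) and 0.03 on arrays labelled shIRF1 (0.956). None of these passed.

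CLDN7, the claudin that EPCAM binds, was weak and dropped out of detection in 1 group. Its log2 levels were 4.57, 4.37 and 4.78 under shCTRL with CDDP, all not detected, against 5.69, 5.74 and 4.88 on shCTRL arrays without CDDP, where the last was not detected. All 3 CDDP arrays lay below the others. The fall of the mean was at least 1.41-fold, taking the lowest detected signal of each array as the floor. The measured means were 4.58 ± 0.20 with CDDP and 5.44 ± 0.48 without (SD, n = 3 each). The fitted change was log2 -0.86 (SE 0.27, interval -1.44 to -0.28, limma adjusted p = 0.0289). The size depends on the background correction: the fitted change was -0.36 without it (adjusted p = 0.049) and -0.49 in the series matrix values (0.0308). So this bound, like those given for CLDN7, PARD3 and SPINT1 below, holds for the corrected values only. Such a bound sets a mean against a floor and leaves out the sampling error, so it is not the lower end of an interval. This call was lost with no detection filter (adjusted p = 0.0725) and without shCTRL array 1 (0.113), shCTRL array 2 (0.115), shCTRL CDDP array 1 (0.0598) or shCTRL CDDP array 2 (0.0996).

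On arrays labelled shIRF1, CLDN7 was detected throughout, at 5.83, 4.95 and 5.61 with CDDP against 6.12, 5.47 and 5.97 without. These groups overlapped, and the change of -0.39 (SE 0.27, interval -0.97 to 0.19, limma adjusted p = 0.365) did not pass. With CDDP the arrays labelled shIRF1 all lay above those of shCTRL. Their mean was at least 1.44-fold above the floor, but the difference did not pass (log2 0.89, SE 0.27, interval 0.31 to 1.47, limma adjusted p = 0.0916). It passed in 1 of 20 alternatives, without CDDP array 2 of the shIRF1 label (log2 1.13, adjusted p = 0.0408). Without CDDP the label difference was 0.41 (adjusted p = 0.507) with overlapping groups. The fitted difference of the CDDP responses was 0.47 (adjusted p = 0.811), which is not read as a comparison of responses because 1 group was not detected.

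CLDN1, a claudin that is required for the barrier of the skin, was not shown to differ between the shRNA labels, and every array with CDDP lay above those without it. Its log2 levels were 12.15, 12.31 and 11.87 on arrays labelled shIRF1 with CDDP, against 11.25, 11.76 and 11.63 on those without. Under shCTRL they were 11.97, 12.14 and 12.08 with CDDP, against 11.13, 11.62 and 11.72 without. Neither pair of groups overlapped, which is a description and not a test.

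The CDDP change in CLDN1 was 0.56 on arrays labelled shIRF1 (1.48-fold, SE 0.20, interval 0.13 to 1.00, limma adjusted p = 0.0634) and 0.57 under shCTRL (1.49-fold, SE 0.20, interval 0.14 to 1.01, adjusted p = 0.0502). Neither passed over all probes. With replicate number as a block, the change under shCTRL of 0.57 had a limma adjusted p of 0.0324. That block fits a replicate effect shared by all 4 groups, while the numbers were taken to pair the shCTRL arrays only. The CDDP change passed in 8 of 21 alternatives under shCTRL and in 6 of 21 on arrays labelled shIRF1. The test of the difference between the responses gave -0.01 (SE 0.29, interval -0.62 to 0.61, adjusted p = 0.995). Between the labels CLDN1 differed by 0.06 without CDDP (interval -0.38 to 0.49, adjusted p = 0.937) and by 0.05 with it (interval -0.39 to 0.48, adjusted p = 0.934), with overlapping groups.

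OCLN, which encodes the membrane protein occludin, gave no measurable signal. In deposited signal, probe 1 read 85.9 to 90.7 on arrays labelled shIRF1 with CDDP and 79.9 to 86.3 under shCTRL with CDDP. Without CDDP it read 76.4 to 90.8 on arrays labelled shIRF1 and 79.2 to 80.3 on shCTRL arrays. Both probes stayed between log2 4.23 and 4.61, where the lowest detected value of an array was 4.78 to 4.99. No change of OCLN can be given in either direction.

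TJP1 encodes ZO-1, the scaffold under the strands, and both of its probes fell with CDDP under shCTRL. Probe 1 had log2 levels of 9.37, 8.99 and 9.15 under shCTRL with CDDP, against 10.06, 9.86 and 10.15 on shCTRL arrays without it. Probe 2 had 8.55, 7.55 and 8.04 with CDDP, against 9.52, 8.57 and 9.25 without. Neither probe's groups overlapped, though for probe 2 the highest CDDP array and the lowest other array nearly met. Probe 1 fell 1.81-fold (log2 -0.85, SE 0.20, interval -1.28 to -0.43, limma adjusted p = 0.00499), a call that held in 21 of 21 alternatives. Probe 2 fell 2.09-fold (-1.07, SE 0.29, interval -1.68 to -0.45, adjusted p = 0.0126), a call lost without shCTRL array 1 (adjusted p = 0.0691) or shCTRL CDDP array 2 (0.0697).

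On arrays labelled shIRF1 the fall of TJP1 was smaller and did not pass. Probe 1 had 9.63, 9.27 and 9.61 with CDDP, against 9.89, 9.41 and 10.04 without, and probe 2 had 8.19, 8.07 and 8.68 with CDDP, against 8.94, 8.36 and 8.95 without. The groups overlapped for both probes. The changes were -0.28 (SE 0.20, limma adjusted p = 0.385) and -0.43 (SE 0.29, adjusted p = 0.338). The responses under the 2 labels were not shown to differ, since the test of their difference gave 0.58 for probe 1 (SE 0.28, interval -0.03 to 1.18, adjusted p = 0.636) and 0.63 for probe 2 (SE 0.41, adjusted p = 0.749). The label difference was -0.24 and -0.36 for the probes without CDDP (adjusted p = 0.624 and 0.614) and 0.33 and 0.27 with it (0.407 and 0.675). Over the 12 arrays the 2 probes correlated at r = 0.911, and at 0.792 after each group's mean was taken off.

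EPCAM was high on the arrays labelled shIRF1 without CDDP and lower in the other groups. Probe 1 had log2 levels of 11.41, 11.50 and 11.64 on arrays labelled shIRF1, against 10.60, 10.72 and 10.71 on shCTRL arrays. Probe 2 had 10.42, 10.70 and 10.99, against 9.60, 9.86 and 10.03 on shCTRL arrays. Probe 3 had 9.56, 9.36 and 9.54 on arrays labelled shIRF1, against 8.20, 8.35 and 8.44 on shCTRL arrays. For every probe all arrays labelled shIRF1 lay above all shCTRL arrays.

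Of the EPCAM probes, 2 passed the test and 1 did not. Probe 3 was higher on arrays labelled shIRF1, 2.23-fold (log2 1.16 with an SE of 0.25; limma adjusted p = 0.013), and probe 2 was 1.83-fold higher (0.87, SE 0.24, interval 0.36 to 1.38, adjusted p = 0.0452), while probe 1 differed by 0.84 (1.79-fold, SE 0.24, interval 0.32 to 1.36, adjusted p = 0.0599). The call of probe 2 was lost in 11 of 20 alternatives, among them every one that left out an shIRF1 or an shCTRL array without CDDP. That of probe 3 was lost in 3 of 20, with median scaling in place of quantiles (1.04, adjusted p = 0.159), without shCTRL array 1 (0.062) and without shIRF1 array 1 (0.0599). Probe 1 passed in 8 of 21. The 3 probes varied together, with r = 0.959, 0.98 and 0.925 between them over the 12 arrays.

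CDDP lowered EPCAM on the arrays labelled shIRF1. With CDDP probe 1 had 9.94, 10.83 and 11.04, probe 2 had 9.16, 9.84 and 10.16, and probe 3 had 7.77, 8.65 and 8.81. Every one of these lay below all 3 arrays of the same label without CDDP. The falls were 1.88-fold (log2 -0.91, SE 0.24, limma adjusted p = 0.0138), 1.98-fold (-0.98, SE 0.24, adjusted p = 0.00778) and 2.11-fold (-1.08, SE 0.25, adjusted p = 0.00645). With median scaling none of the 3 passed (adjusted p = 0.122, 0.101 and 0.0681). CDDP array 1 of that label was the lowest for all 3 probes and had the lowest mean signal of the 12 arrays (259). Without it the falls were -0.58 for probe 1, which no longer passed (adjusted p = 0.0602), and -0.70 and -0.75 for probes 2 and 3, which did.

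Under shCTRL the arrays with CDDP read 10.17, 10.35 and 10.69 for EPCAM probe 1, 9.57, 9.37 and 9.62 for probe 2, and 7.69, 8.06 and 8.45 for probe 3. These overlapped with the shCTRL arrays without CDDP, and the changes of -0.27, -0.31 and -0.27 did not pass (limma adjusted p = 0.459, 0.384 and 0.495). The difference between the CDDP responses was -0.64, -0.67 and -0.81 for the 3 probes. Adjusted over all probes none passed (limma adjusted p = 0.685, 0.65 and 0.609), and the unadjusted limma p was 0.0842, 0.0653 and 0.0394. With CDDP the label difference was 0.20, 0.20 and 0.35 (adjusted p = 0.715, 0.709 and 0.513), and the groups overlapped for every probe.

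**Figure D2:**
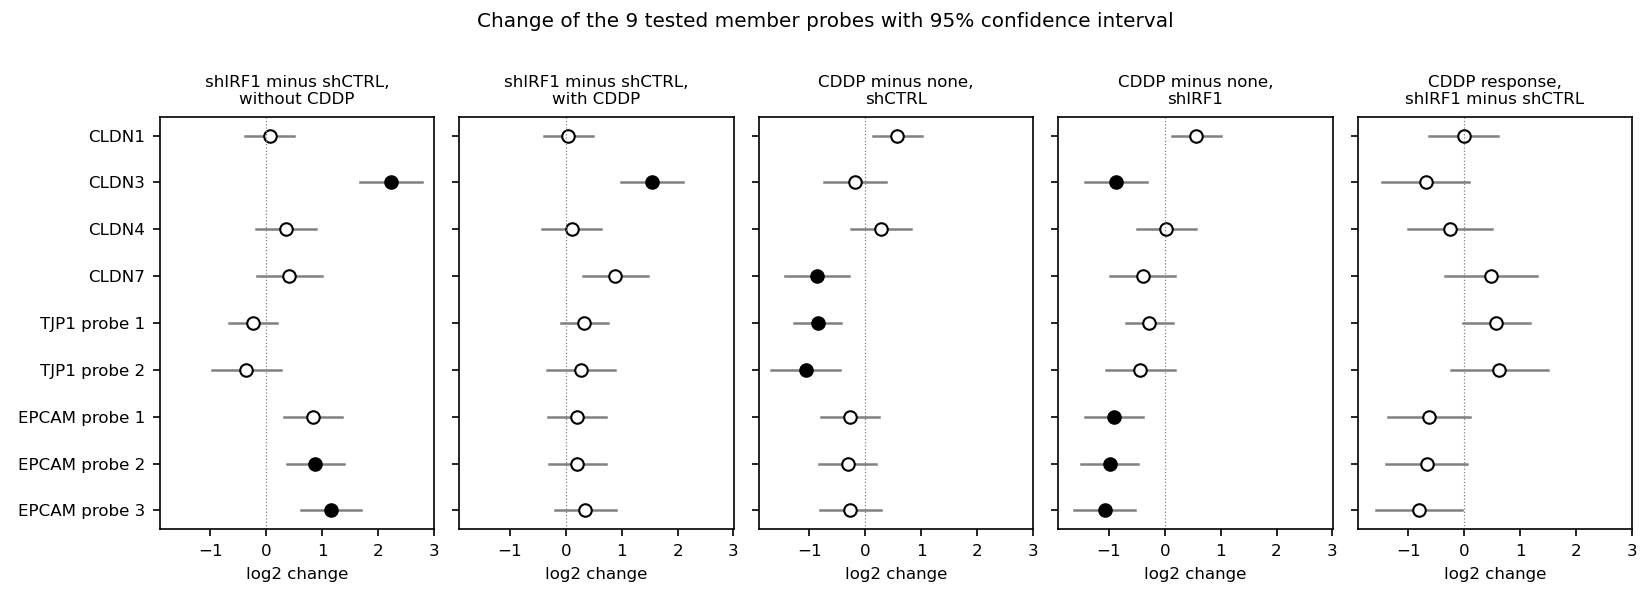
Points show the log2 change of the 9 tested probes in each of the 5 comparisons and bars its 95% confidence interval; filled points passed limma's test at an adjusted p under 0.05. CLDN3 passed in 3 comparisons, EPCAM probes in the panels of the labels without CDDP and of CDDP on the shIRF1 label, TJP1 and CLDN7 only in that of CDDP under shCTRL, and no probe in that of the difference.

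The calls of the 9 tested probes were read beside those of all probes. The genes were proposed with earlier results of these data known, so a share above that of all probes is no independent evidence. Without CDDP, 3 of 9 were called higher on the arrays labelled shIRF1 and 0 lower, where 2.71% of all probes were called higher and 2.63% lower. These 3 probes come from 2 genes, CLDN3 and EPCAM. With CDDP 1 of 9 was called higher, CLDN3, and 0 lower, against 1.53% and 2.04% of all probes. Under shCTRL 3 of 9 were called lower with CDDP, from TJP1 and CLDN7, and 0 higher, against 13.5% and 12.8% of all probes. With replicate number as a block shared by all 4 groups, 4 of 9 were called in that comparison, with CLDN1 added as higher. On arrays labelled shIRF1 4 of 9 were called lower with CDDP, from CLDN3 and EPCAM, and 0 higher, against 11% and 10.2% of all probes. For the difference of responses 0 of 9 passed in limma's test, with 1 of 9 at an unadjusted p under 0.05, and 0.0809% of all probes were called. The median change of the 9 probes was 0.41, 0.27, -0.27, -0.43 and -0.25 in these 5 comparisons, in that order, while the median of all probes lay between -0.00 and 0.02. The comparisons share arrays: the shCTRL arrays without CDDP enter both the label comparison without CDDP and the CDDP comparison under shCTRL, and the arrays labelled shIRF1 are shared likewise, so their calls are not independent of each other.

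Other junction genes were followed in 6 lists of 84 genes, of which 75 were on the array and 51 genes with 78 probes were tested. The others were not analysed here. Without CDDP 11 of the 78 probes were higher on arrays labelled shIRF1 and 5 were lower, with a median change of 0.15 over the 78. Of all probes 2.71% were higher and 2.63% lower in that comparison. With CDDP 7 of the 78 were higher and 3 lower (median 0.25), against 1.53% and 2.04% of all probes. Under shCTRL CDDP raised 7 and lowered 18 (median -0.16), where 12.8% of all probes were higher and 13.5% lower. On arrays labelled shIRF1 it raised 5 and lowered 11 (median -0.13), against 10.2% and 11% of all probes. In all, 32.1% and 20.5% of the 78 were called with CDDP, so that the share on arrays labelled shIRF1 was near that of the array. These shares of all probes stand behind each list count below, and no list was tested as a set. The lists too were chosen with earlier results of these data known. In the difference of responses 0 passed in limma's test, with 4 at an unadjusted p under 0.05.

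Among other claudins, 2 of 12 probes were higher and 0 lower on arrays labelled shIRF1 without CDDP, where 2.71% of all probes were higher. Between the labels with CDDP 0 of 12 passed in limma's test, where 3 were under an unadjusted p of 0.05. CDDP raised 3 of the 12 under shCTRL (12.8% of all probes) and 1 on arrays labelled shIRF1 (10.2% of all probes), and lowered 0 in either. Of the other membrane proteins of the tight junction, 3 of 7 probes were higher on arrays labelled shIRF1 without CDDP (2.71% of all probes) and 3 of 7 with it (1.53% of all probes). They include CRB3, a polarity protein of the apical membrane, which has 2 called probes. The one was 3.04-fold higher without CDDP (log2 1.60, SE 0.22, limma adjusted p = 0.000337) and 2.41-fold higher with it (1.27, SE 0.22, adjusted p = 0.00337). The other was 2.50-fold higher without CDDP (1.32, SE 0.26, adjusted p = 0.00609) and 2.68-fold higher with it (1.42, SE 0.26, adjusted p = 0.00559), where 2 of the 3 shCTRL CDDP arrays detected it.

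The scaffolds and polarity proteins, which sit with ZO-1 on the inner face of the junction, had 8 of 19 probes lower and 0 higher with CDDP under shCTRL, where 13.5% of all probes were lower. On arrays labelled shIRF1 4 of 19 were lower and 0 higher, against 11% of all probes lower. CGNL1 (paracingulin) averaged 6.54 ± 0.14 under shCTRL with CDDP and 9.30 ± 0.13 under shCTRL without it (SD, n = 3 each), a fall of 6.78-fold (log2 -2.76, SE 0.23, limma adjusted p = 6.23e-07), and it fell 9.66-fold on arrays labelled shIRF1 (-3.27, SE 0.23, adjusted p = 1.96e-07). PRKCZ, the atypical protein kinase C of the polarity complex, fell 3.45-fold under shCTRL (-1.79, SE 0.23) and 3.57-fold on arrays labelled shIRF1 (-1.84, SE 0.23). PARD3, its partner, fell 2.87-fold under shCTRL (-1.52, SE 0.22), where 2 of 3 CDDP arrays detected it, and at least 2.47-fold on arrays labelled shIRF1, where 0 of 3 CDDP arrays did. Cingulin (CGN), the paralog of CGNL1, was higher on arrays labelled shIRF1, by 2.88-fold without CDDP (1.52, SE 0.22, adjusted p = 0.000574) and by 3.51-fold with it (1.81, SE 0.22, adjusted p = 0.000246), and it was 1 of 2 probes of this list that were higher there in each case.

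In the list of proteases that cut EPCAM or claudins, their inhibitors and the EPCAM-binding cofactor FHL2, 3 of 12 probes fell with CDDP under shCTRL, where 13.5% of all probes did, and 2 of 12 on arrays labelled shIRF1, near the 11% of all probes. None rose in either (0 of 12). The sheddase ADAM10 fell 3.96-fold under shCTRL on 1 probe (log2 -1.99, SE 0.31, limma adjusted p = 0.000194) and 2.93-fold on another (-1.55, SE 0.30, adjusted p = 0.00112), which was detected on 2 of 3 CDDP arrays. On arrays labelled shIRF1 the first of these fell 3.28-fold (-1.71, SE 0.31, adjusted p = 0.000849). Between the labels without CDDP, 1 of the 12 probes was higher and 2 lower, against 2.71% and 2.63% of all probes. The higher one, of the protease inhibitor SPINT1, had a mean at least 1.58-fold higher, as 0 shCTRL arrays detected it (fitted log2 0.93, interval 0.43 to 1.44, limma adjusted p = 0.0292). Another SPINT1 probe, also detected on 0 shCTRL arrays, did not pass (0.50, adjusted p = 0.288). The 2 lower probes were both of FHL2, a LIM-domain protein that is neither a protease nor an inhibitor (-0.80 and -0.69, adjusted p = 0.0154 and 0.0359). SPINT1 and FHL2 are named after their values were seen.

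Of the transcription factors described as acting on claudin or EPCAM genes, 1 of 9 probes was higher and 2 were lower on arrays labelled shIRF1. The counts were the same in both comparisons of the labels, where 2.71% and 1.53% of all probes were higher and 2.63% and 2.04% lower. The higher probe was of another gene in each. The 2 lower probes were both of SNAI2 (Slug), which represses claudin and E-cadherin genes through E-boxes. Their difference from shCTRL was log2 -2.58 (SE 0.19) and -2.26 (SE 0.23) without CDDP and -1.84 (SE 0.19) and -1.67 (SE 0.23) with it. The higher one without CDDP was ELF3, an epithelial ETS factor, at 2.96-fold (1.57, SE 0.32, limma adjusted p = 0.00872), a call lost without shIRF1 array 1 (adjusted p = 0.0526) or shCTRL array 3 (0.0542). With CDDP ELF3 did not pass (0.82, SE 0.32, limma adjusted p = 0.187). The higher probe there was of TFCP2L1 (0.77, SE 0.19, adjusted p = 0.038), which is named after its values were seen. CDDP raised 3 and lowered 1 of the 9 under each label, where 12.8% of all probes were higher and 13.5% lower under shCTRL. The shares were 10.2% and 11% for the shIRF1 label.

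In the adherens junction, the belt just below the tight junction, 2 of 19 probes were higher and 1 lower on arrays labelled shIRF1 without CDDP, and 1 higher and 1 lower with it. Of all probes 2.71% were higher and 2.63% lower without CDDP, and 1.53% and 2.04% with it. CDH1 (E-cadherin), the adhesion molecule of that belt, had a mean of 9.26 ± 0.28 on arrays labelled shIRF1 and 6.17 ± 0.23 on shCTRL arrays (SD, n = 3 each). With CDDP its means were 7.52 ± 0.44 on arrays labelled shIRF1 and 4.93 ± 0.14 under shCTRL (SD, n = 3 each), where 2 of 3 arrays detected it. The label difference was 8.50-fold without CDDP (log2 3.09, SE 0.23) and 6.02-fold with it (2.59, SE 0.23), though the value with CDDP was 1.34 without background correction. CDDP lowered CDH1 3.34-fold on arrays labelled shIRF1 (log2 -1.74, SE 0.23, limma adjusted p = 6.34e-05) and 2.37-fold under shCTRL (-1.24, SE 0.23, adjusted p = 0.000845). CDDP lowered 6 of 19 probes under shCTRL (13.5% of all probes) and 4 on arrays labelled shIRF1 (11% of all probes), and raised 0 in either.

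**Figure D3:**
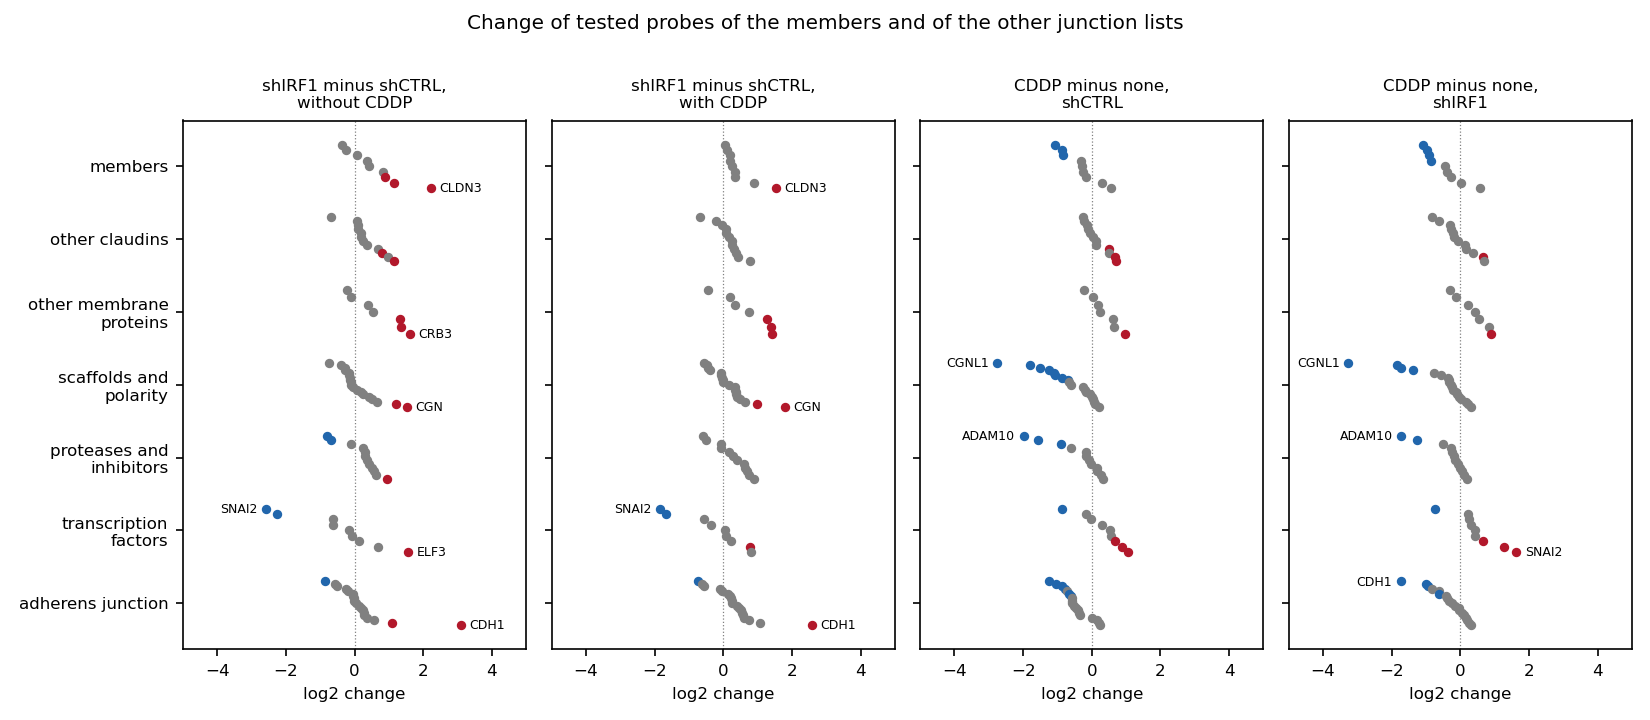
Each point is the log2 change of 1 tested probe, in 4 comparisons, for the members (top) and 6 other junction lists; red points passed as higher and blue points as lower (limma adjusted p under 0.05), grey points did not pass. The most extreme called probe on each side of a list carries its symbol where its change was at least 1.5. CLDN3 is the rightmost member in both comparisons of the labels, and CGNL1 lies farthest left in both CDDP comparisons.

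For the 4 members with a probe detected on all 12 arrays, the genes whose levels followed it most closely were picked by Pearson correlation with its brightest probe. For CLDN3 they were GNE (r = 0.988) and PAOX (0.976), for EPCAM ONECUT2 (0.941) and GNAI1 (0.935), for TJP1 CCSER2 (0.951) and SMS (0.941), and for CLDN1 WDR24 and RHOT2 (0.966 each). The 12 arrays form 4 groups and each pair of values shares its array, so these values describe the arrays and carry no test.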

How the data were processed

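Messenger RNA was measured on 12 Illumina bead arrays, 3 in each of 4 groups taken from the sample titles. Per the file headers, the authors deposited a non-normalized table with a mean bead intensity per probe, linear and not scaled between arrays, and beside it a detection p-value against each array's negative controls. Per the submitters' processing notes BeadStudio 2 was used. The authors' series matrix held a further deposited intensity, linear in that array's non-normalized signal (r = 1 on each array, factor 1.37 to 2.66, constant -116 to -14.2, column medians 116 to 132.2). Its scale is linear, it is not centred and brighter is higher, and what set the factors is unknown.

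Normalization used R 4.3.3 and limma 3.58.1 (neqc): normexp background correction, its control statistics estimated through the detection p-values, an offset of 16, quantile matching and log2. The 22260 probes detected on 3 arrays or more (p-value under 0.05) entered the tests, and probes of a gene were kept apart. A model with 1 mean per group over the 12 arrays was fitted (lmFit, eBayes; residual degrees of freedom 8, prior 7.19). It gave 5 comparisons, with two-sided p-values adjusted by Benjamini-Hochberg over all probes and called under 0.05. All adjusted p-values are limma's. Where 0 arrays of a group detected a probe, the change is a bound: the brighter mean is set against a floor, for which each array gives its lowest detected value or the probe's own value if that is higher. This bound carries no sampling error.

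Of the probes, 30109 had 1 symbol in the platform annotation, 8 several and 17196 none, and 30070 were updated through Entrez identifiers with RefSeq names of GRCh38.p14. No source used here names the build behind that annotation. All value columns belonged to the 12 samples. Named genes are the members, IRF1, up to 5 called probes with the largest change over the other lists in each comparison, and for each member detected on all 12 arrays the 2 genes most correlated with it. The members, lists, tests and alternatives were chosen with earlier results of these data known. The code of the fit was run on simulated data with known changes, with noise drawn independently for each probe and array. Such data hold no effect that probes of an array share.

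Titles number the samples 1 to 3 in each group. Same-numbered arrays of shCTRL with and without CDDP deviated together (r = 0.202, 0.17 and 0.224 over all probes), so the numbers were taken to pair the samples in that comparison, from the data alone. The alternatives were a replicate block, median scaling, no background correction, no detection filter, detection at 0.01 on all 12 arrays, the series matrix values, 1 probe a gene, only the groups compared, array weights and leaving out each array. The number of arrays limits the precision. A motif match describes letters in a window only.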

Additional observations from a re-analysis of the deposited data

How the results depend on the processing

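Under median scaling 1 and 1 probes of the members passed in the label comparison without CDDP and in the CDDP comparison on arrays labelled shIRF1, against 3 and 4 with quantiles, 10 of the other junction probes passed in that CDDP comparison (16 with quantiles), and over all probes 567, 352, 3700, 2671 and 6 passed in the 5 comparisons, against 1189, 795, 5850, 4711 and 18. It moved the share of all calls that were higher to 55.4% from 42.8% for the labels with CDDP and to 35.6% from 48.8% for CDDP under shCTRL. The cause was not tested. With 1 probe a gene, which tests 6 members, 1 and 2 passed in the comparisons named first. Detection at 0.01 on all 12 arrays, which tests fewer probes, left 10 other junction probes (16) for the labels without CDDP and 7 of all probes for the difference of responses. That difference gave 28 in the series matrix values. Several dim probes changed less when no background was corrected: CDH1 between the labels with CDDP was 1.34 (2.59), CRB3 there 0.64 (1.42) and without CDDP 0.98 (1.60), PARD3 -0.66 and -0.74 with CDDP under shCTRL and on arrays labelled shIRF1 (-1.52 and -1.71), ADAM10 -0.69 (-1.55) and PRKCZ -1.14 (-1.79) under shCTRL, all still called. The series matrix values gave 1.62, 0.80, -0.84, -0.99 and -0.87 for CDH1, CRB3 with CDDP, PARD3 and ADAM10 in that order. Fitting only the groups compared gave 352 for the labels with CDDP, with fewer arrays behind the spread. With a replicate block the members' counts were 4, 1, 4, 5 and 0, against 3, 1, 3, 4 and 0. Where the numbers were not taken to pair the samples, the block passed EPCAM probe 1 between the labels without CDDP (0.84, limma adjusted p = 0.0247) and CLDN1 with CDDP on arrays labelled shIRF1 (0.56, 0.0412). Between the labels without CDDP same-numbered arrays gave r = 0.198, 0.0762 and 0.194, each best with its own number. For CDDP on arrays labelled shIRF1 r was 0.167, 0.0709 and 0.221. In both the middle value was held too low to take the arrays as paired. Over the 18 pairs of same-numbered arrays r ran from -0.0138 to 0.224, and 14 correlated best with their own number. The slide block was not run, because the file headers name no slide.

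Leaving out 1 array gave 1 to 4 member probes without CDDP between the labels, 1 to 2 with it and 1 to 4 for CDDP under shCTRL. Over all probes it gave 661 to 1343, 412 to 833 and, for the difference of responses, 4 to 19. The signs that turned were all of changes that did not pass. For CLDN1 the label difference ran from -0.12 to 0.20 without CDDP and from -0.052 to 0.17 with it (-0.013 with median scaling), and the difference of responses from -0.16 to 0.17 (0.0086 with array weights). For CLDN4 the ranges were -0.11 to 0.36 between the labels with CDDP, -0.18 to 0.29 for CDDP on arrays labelled shIRF1 (-0.031 with array weights) and -0.46 to 0.0054 for the difference of responses. The others were EPCAM probe 1 (-0.014 to 0.53) and probe 2 (-0.014 to 0.48) between the labels with CDDP, IRF1 without CDDP (-0.093 to 0.24) and CLDN3 with CDDP under shCTRL (-0.32 to 0.051). Signals near the detection limit restrict CLDN4 and CLDN7, and OCLN cannot be read at all.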

Other observations

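Single arrays moved several members together, beside the group means. After each group's mean was taken off, CLDN3 and CLDN7 deviated together over the 12 arrays (r = 0.768), while the neighbours CLDN3 and CLDN4 gave 0.324 and CLDN3 and EPCAM probe 1 gave -0.119. CLDN1 deviated against CLDN7 (r = -0.641) and against TJP1 probe 2 (-0.667). These pairs were chosen after their values were seen, the values share their arrays, and no test is attached. The array of shIRF1 with CDDP numbered 2 was the lowest of its group for CLDN3, CLDN4, CLDN7 and both TJP1 probes, and the highest for CLDN1. Whether its 21126 detected probes, the most of the 12 arrays, bear on this was not tested.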
